A study of Homo sapiens with 3 samples.

Results

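AP-1 is a pair of bZIP proteins, one usually from the JUN family and one from the JUN or FOS family, that binds a short DNA motif and drives genes of growth, migration and matrix remodelling. Several of its subunits are immediate early genes, whose transcription starts from factors already present in the cell within minutes of a growth factor or stress signal, mostly through the MAP kinases ERK, JNK and p38, and whose mRNA and protein are short lived. The linear ubiquitin ligase complex LUBAC, of which HOIL-1 (gene *RBCK1*) is a subunit, acts upstream of NF-kB and of MAP kinases in signalling from cytokine receptors.

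The genes described here are 10 AP-1 and immediate early genes, *FOS*, *FOSB*, *FOSL1*, *JUN*, *JUNB*, *EGR1*, *IER2*, *IER3*, *MYC* and *KLF6*, out of 44591 genes in the deposited table. They were chosen by name, and the levels and ratios of 8 of the 10 could be used. RNA was taken from Caki-1, a human clear cell renal cell carcinoma line, 48 h after the cells received si-Control, si-HOIL-1#1 or si-HOIL-1#2, the last 2 being siRNAs against *RBCK1* that are called si-RBCK1 #1 and si-RBCK1 #2 here. The general transfection methods give 10 nmol/L of siRNA. Each condition is a single library, 3 in total, so differences cannot be set against a spread between replicates and no p-value is given. The cells came from 1 line, and the 2 siRNAs are different reagents that share the same si-Control library, so the ratios of one siRNA are not independent of those of the other. No stimulus is named in the labels for any of the 3 libraries.

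Levels are given in RPKM, a read count corrected for gene length and sequencing depth, which allows levels to be compared between genes. Ratios are differences on the log2(RPKM + 1) scale unless a sentence says that they are on reads. The numbers of reads behind the RPKM values were recovered from the steps between values. The shortest gene length that gave whole reads in all 3 libraries was used, so true counts can be a multiple of these. For *IER2* that length was 1025 bases, against 2934 bases for its longest transcript. Higher counts would leave the read ratios unchanged and narrow their intervals. The intervals on reads are exact Clopper-Pearson intervals (95%) that cover counting error only. Sequencing depth, as the RPKM steps give it, was 36926834 reads (si-Control), 40442939 reads (si-RBCK1 #1) and 36344428 reads (si-RBCK1 #2). Of the 12404 genes whose mean level reached 1 RPKM, 12387 were used as the set of all genes tested. The other 17 had a value that is not a number or did not give the fold change of their own entry.

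*RBCK1*, the targeted gene, was at 33.3 RPKM in si-Control, 9.97 RPKM in si-RBCK1 #1 and 12.3 RPKM in si-RBCK1 #2, with folds of 0.299 and 0.368 on reads. The labelled cell type was read from marker genes: *PAX8*, a transcription factor of renal epithelium, was at 82.5 to 124 RPKM, while *PAX2* and *EPCAM* were under 1 RPKM in all 3 libraries. The summed level of 11 renal epithelial markers was 974 RPKM in si-Control, 1934 RPKM in si-RBCK1 #1 and 1942 RPKM in si-RBCK1 #2, most of it vimentin. Its members went both ways: of the 7 tested, 5 were higher and 2 lower with si-RBCK1 #1, and 6 were higher and 1 lower with si-RBCK1 #2. The epithelial keratin gene *KRT8* was higher in both (log2 ratios of 1.38 and 1.84), whereas *PAX8* had ratios of -0.59 and -0.22. All 5 endothelial markers, 4 of 5 fibroblast markers and 5 of 6 leukocyte markers were under 1 RPKM in all libraries. The leukocyte sum of 41.9 to 52.4 RPKM was almost wholly *CD68*. The part of these marker levels in the results was not tested, and in bulk RNA fewer cells of a kind and less RNA per cell cannot be told apart.

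The reagents are shown first, because a match to part of a guide strand could lower an mRNA other than the target. The sense strands of both siRNAs follow, 5′ to 3′, with capitals for the bases of the target that pair with guide positions 2 to 8.
si-RBCK1 #1: ggtgcaccttcATCAACAa
si-RBCK1 #2: ggattaccagcGATTTCTa
Among the longest protein-coding transcripts of 19669 genes in GENCODE v29, the full 19 bases of si-RBCK1 #1 were found only in *RBCK1* (bases 1307 to 1325) and those of si-RBCK1 #2 likewise (bases 1749 to 1767). The 7 capital bases of si-RBCK1 #1 were present once in the transcripts of *FOSL1* and *JUNB*, and those of si-RBCK1 #2 once in that of *FOSB*, while the other members held no match. Such a match was common, in 22.3% of all these transcripts for si-RBCK1 #1 and in 25.9% for si-RBCK1 #2. Whether a match bears on the level of these 3 members was not tested.

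The next sequences are the 250 bases before the start site of 3 members, taken from RefSeq on GRCh38.p14, chosen because they hold the classical elements of immediate early promoters. Capitals mark 2 CArG boxes in the *EGR1* promoter, the motif bound by serum response factor, and a TATA box (TATAAA) in the promoters of *FOS* and *JUNB*.
*EGR1* chr5:138465229-138465478, plus strand: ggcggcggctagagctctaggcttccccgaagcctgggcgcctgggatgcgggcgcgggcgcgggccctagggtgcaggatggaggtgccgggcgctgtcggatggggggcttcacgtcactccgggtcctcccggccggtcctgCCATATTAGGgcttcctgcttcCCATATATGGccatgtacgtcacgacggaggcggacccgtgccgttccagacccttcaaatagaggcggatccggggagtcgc
*FOS* chr14:75278578-75278827, plus strand: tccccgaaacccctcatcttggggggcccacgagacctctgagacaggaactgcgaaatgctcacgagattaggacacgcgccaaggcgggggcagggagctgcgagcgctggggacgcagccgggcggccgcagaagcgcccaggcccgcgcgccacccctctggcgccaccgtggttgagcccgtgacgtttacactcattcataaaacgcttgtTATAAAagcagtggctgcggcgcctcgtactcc
*JUNB* chr19:12791236-12791485, plus strand: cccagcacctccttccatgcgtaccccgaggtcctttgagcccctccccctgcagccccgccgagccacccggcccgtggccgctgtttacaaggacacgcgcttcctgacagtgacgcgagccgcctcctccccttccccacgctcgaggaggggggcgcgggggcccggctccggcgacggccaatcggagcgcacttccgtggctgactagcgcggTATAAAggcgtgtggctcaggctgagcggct
The CArG boxes of *EGR1* began 105 and 83 bases before the start site, and the TATA boxes of *FOS* and *JUNB* began 33 and 31 bases before it. Windows of 300 bases, 250 before and 50 after the start, were searched on both strands. They covered 7 of the 10 members, those with a RefSeq window at hand, and 35116 promoters in all. *FOSL1*, *MYC* and *IER3* were not searched, and neither was any sequence further from the start site. The CArG box was in 1 of the 7 and in 1.29% of all promoters, and TATAAA in 3 of the 7 (*FOS*, *FOSB* and *JUNB*) and in 11.5% of all. The EGR site GCGNGGGCG was in 2 of the 7, *EGR1* and *KLF6*, and in 9.43% of all, and the E-box CACGTG, which MYC and MAX bind, was in *KLF6* and in 7.26% of all. The letters of the AP-1 site TGANTCA (7.71% of all promoters), of the cyclic AMP element TGACGTCA (1.85%) and of the NF-kB site (11.3%) were not in the windows of these 7. All 10 members had short genes, as is known of immediate early genes, with spans from 1352 to 9286 bases and a median of 4132.5, against a median of 29040 bases over 10759 protein-coding genes tested, of which 21.2% were under 10000 bases. ATTTA, a short motif of the AU-rich elements that speed mRNA decay, was counted over the whole of each gene's longest transcript. It occurred at a median of 0.973 per kb in the members, from 0 in *IER2* to 4.44 in *IER3*. The median was 1.09 per kb over 10537 protein-coding genes tested. Whether these matches lie in AU-rich elements was not tested. The longer TTATTTATT was found in *FOS* alone, 1 of 10 members, and in 10.4% of all.

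The first question was which of these genes the cells expressed, and at what level. In si-Control the order of the 8 usable members was *MYC*, *FOSL1*, *JUN*, *KLF6*, *JUNB*, *IER2*, *FOSB* and *FOS*, from 143 to 0.376 RPKM, and no neighbours in that order overlapped in their counting intervals. *MYC*, *FOSL1*, *JUN*, *KLF6* and *JUNB* were above 98.3%, 98.1%, 97.0%, 94.6% and 90.3% of protein-coding genes in the table. *IER2* was above 71.1% of them, *FOSB* above 44.9% and *FOS* above 38.5%. *FOSL1* was above *MYC* in si-RBCK1 #1, whereas *MYC* and *FOSL1* overlapped in si-RBCK1 #2. *FOS* and *FOSB* overlapped at the bottom of the order in si-RBCK1 #1.

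**Figure D1:**
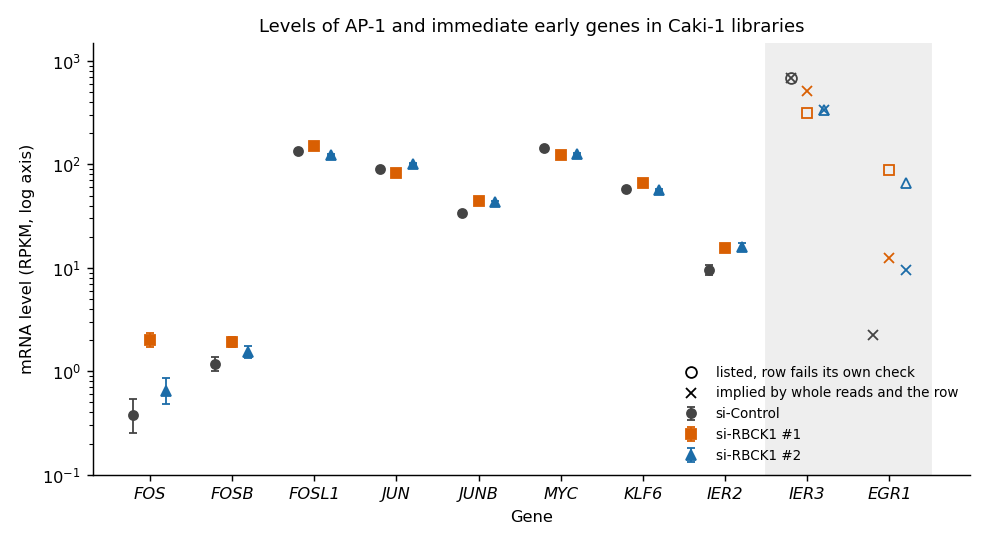
mRNA level (RPKM, log axis) of the 10 genes in si-Control (circles), si-RBCK1 #1 (squares) and si-RBCK1 #2 (triangles). Filled symbols carry 95% counting intervals on recovered reads, open symbols in the shaded area are values as listed for *IER3* and *EGR1*, and crosses are the values that whole reads and the entry's own fold change imply. *FOS* and *FOSB* lay between 0.376 and 2.01 RPKM, whereas *FOSL1*, *JUN*, *JUNB*, *MYC* and *KLF6* lay between 33.8 and 150 RPKM.

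The comparison with si-Control asked whether the AP-1 and immediate early genes moved as a group when *RBCK1* was depleted. In si-RBCK1 #1, 6 of the 8 usable members were higher and 2 were lower, with a median log2 ratio of 0.29 and a range from -0.20 to 1.13. In si-RBCK1 #2, 5 were higher and 3 lower, with a median of 0.19 and a range from -0.18 to 0.69. Over all genes tested, 51.5% were higher in si-RBCK1 #1 and 53.5% in si-RBCK1 #2, and the median was 0.02 and 0.03. The middle 95% of genes ran from -1.08 to 1.04 in si-RBCK1 #1 and from -0.96 to 0.99 in si-RBCK1 #2. At least 2-fold higher in si-RBCK1 #1 was 1 of 8, *FOS*, beside 2.85% of all genes tested, and none was 2-fold lower, beside 3.24%. No member was 2-fold higher or lower in si-RBCK1 #2, beside 2.45% and 2.24% of all genes tested, so none was 2-fold higher (1.40%) or 2-fold lower (1.38%) with both siRNAs. At a limit of 1.5-fold, *FOS* and *IER2* were higher in si-RBCK1 #1 (12.0% of all genes tested) and *IER2* in si-RBCK1 #2 (11.2%), and no member was lower by that much with either siRNA (11.5% and 9.29%). The counting interval on reads lay above 0 for 6 members and below 0 for 2 in si-RBCK1 #1, beside 40.2% and 37.5% of all genes tested. In si-RBCK1 #2 it lay above 0 for 5 and below 0 for 2, beside 41.0% and 34.1%. An interval that leaves out 0 was thus no mark of these genes, since 77.7% and 75.1% of all genes tested had one. Between the libraries of the 2 siRNAs, si-RBCK1 #2 to si-RBCK1 #1, 1 member was above and 4 were below beyond counting error. In either direction this held for 62.5% of all genes tested. No member differed 2-fold on log2(RPKM + 1), beside 1.38% of all genes tested, but on reads *FOS* had a fold of 0.324. *FOS* and *FOSB* pass the minimum of 1 RPKM narrowly, and *FOS* passes it only through its si-RBCK1 #1 level, so the counts over usable members describe these libraries and nothing more.

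**Figure D2:**
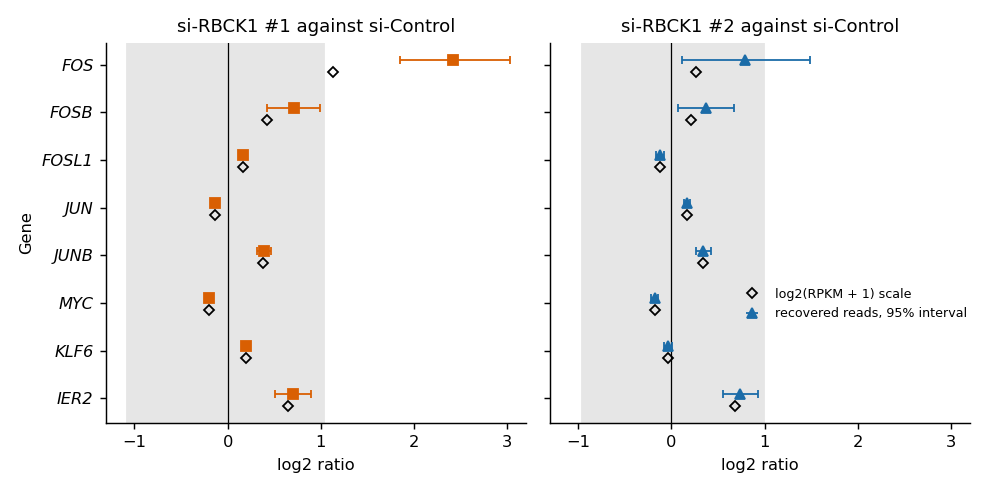
log2 ratios of the 8 usable members, si-RBCK1 #1 (left) and si-RBCK1 #2 (right) against si-Control. Filled symbols are ratios of recovered reads with 95% counting intervals, open diamonds are ratios on log2(RPKM + 1), and the grey band is the middle 95% of all genes tested on the log2(RPKM + 1) scale. On that scale *FOS* in si-RBCK1 #1 was the 1 member outside the band, and this same level let *FOS* past the minimum of 1 RPKM.

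FOS family proteins act in AP-1 mainly as partners of a JUN protein. *FOS* (hg19 chr14:75745481-75748937, plus strand), the classical serum-induced member, was at 0.376 RPKM in si-Control, 2.01 RPKM in si-RBCK1 #1 and 0.650 RPKM in si-RBCK1 #2, from 30, 175 and 51 reads. It was low in all 3 libraries, and the si-RBCK1 #1 library stood apart from the others. *FOS* passed the minimum mean of 1 RPKM only through that library, so its ratios are not ranked among the genes tested. Its log2 ratio was 1.13 with si-RBCK1 #1 and 0.26 with si-RBCK1 #2. On reads, where no pseudocount damps a low gene, these were 2.41 (1.85 to 3.02), a fold of 5.33, and 0.79 (0.11 to 1.49), a fold of 1.73. The 2 siRNAs differed for *FOS* by -0.86 on log2(RPKM + 1), si-RBCK1 #2 to si-RBCK1 #1, and by -1.62 on reads (-2.10 to -1.17).

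*FOSB* (chr19:45971253-45978437, plus strand), a serum-induced subunit best known from the brain, was at 1.18 RPKM in si-Control, 1.93 RPKM in si-RBCK1 #1 and 1.53 RPKM in si-RBCK1 #2, from 165, 295 and 210 reads. Its level was higher in both si-RBCK1 libraries, with log2 ratios of 0.43 and 0.21. On reads the ratios were 0.71 (0.43 to 0.99) and 0.37 (0.07 to 0.67). Between the 2 siRNAs, the si-RBCK1 #2 library was lower than si-RBCK1 #1 by a read ratio of -0.34 (-0.60 to -0.08).

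*FOSL1* (chr11:65659607-65667997, minus strand) encodes FRA-1, the subunit without a transactivation domain of the FOS kind that is common in invasive carcinoma lines. It was at 134 RPKM in si-Control, 150 RPKM in si-RBCK1 #1 and 123 RPKM in si-RBCK1 #2. The si-Control level lay between the other two, with log2 ratios of 0.16 (0.12 to 0.20 on reads) and -0.12 (-0.16 to -0.07). The difference of si-RBCK1 #2 to si-RBCK1 #1 was -0.28 (-0.32 to -0.24), and 11.8% of genes tested had a lower one.

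Of the summed FOS family mRNA, which includes *FOSL2* as the remaining family gene, *FOSL1* made up 66.2% in si-Control, 67.2% in si-RBCK1 #1 and 59.1% in si-RBCK1 #2. *FOSL2*, which encodes FRA-2, made up 33.1%, 31.1% and 39.9% in the same order. *FOS* contributed 0.186%, 0.898% and 0.312%, and *FOSB* 0.585%, 0.865% and 0.733%. The family sum was 202 RPKM in si-Control, 223 RPKM in si-RBCK1 #1 and 209 RPKM in si-RBCK1 #2, so the 5.33-fold difference in *FOS* reads was a small part of FOS family mRNA.

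The JUN family can form AP-1 alone or with a FOS protein. *JUN* (chr1:59246463-59249785, minus strand), the subunit that JNK phosphorylates, was at 90.4 RPKM in si-Control, 82.4 RPKM in si-RBCK1 #1 and 102 RPKM in si-RBCK1 #2. It was lower with one siRNA and higher with the other, with log2 ratios of -0.13 (-0.17 to -0.10 on reads) and 0.17 (0.13 to 0.21). The libraries of the 2 siRNAs differed by 0.30 (0.27 to 0.34), above 84.9% of genes tested. *JUN* and *FOSL1* were the 2 members on opposite sides of si-Control with the 2 siRNAs beyond counting error, as were 4.57% of all genes tested. A tRNA gene listed on the same strand over all 3323 bases of *JUN* was at 0 to 0.183 RPKM.

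*JUNB* (chr19:12902310-12904125, plus strand), often the weaker activator and a brake on JUN, was at 33.8 RPKM in si-Control, 44.3 RPKM in si-RBCK1 #1 and 42.9 RPKM in si-RBCK1 #2. Both si-RBCK1 libraries were above si-Control, by 0.38 (0.31 to 0.47 on reads) and 0.34 (0.27 to 0.43). They differed from each other by a read ratio of -0.05 (-0.12 to 0.03), an interval that includes 0. *JUND*, the remaining JUN gene and not among the 10, was at 43.1, 67.8 and 71.1 RPKM in the order si-Control, si-RBCK1 #1 and si-RBCK1 #2, with log2 ratios of 0.64 and 0.71.

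The JUN family sum was 167 RPKM in si-Control, 194 RPKM in si-RBCK1 #1 and 216 RPKM in si-RBCK1 #2. *JUN* made up 54.0%, 42.4% and 47.1% of it, *JUNB* 20.2%, 22.8% and 19.9%, and *JUND* 25.8%, 34.9% and 33.0%. The share of *JUN* was thus lower in both si-RBCK1 libraries, including si-RBCK1 #2 where its level was higher. The summed FOS family level divided by the summed JUN family level was 1.21 in si-Control, 1.15 in si-RBCK1 #1 and 0.968 in si-RBCK1 #2.

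**Figure D3:**
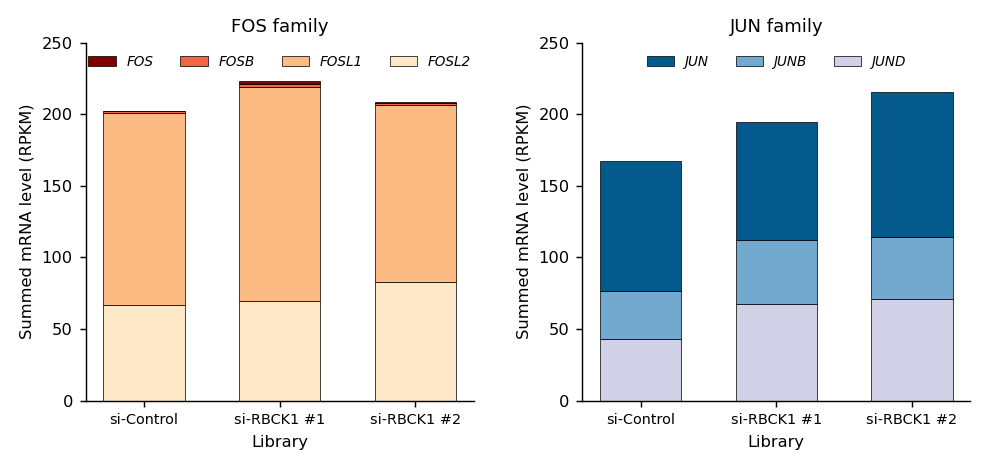
Summed mRNA level (RPKM) of the FOS family (left) and the JUN family (right) in each library, with bar segments for the genes. *FOSL1* and *FOSL2* filled nearly all of the FOS family bars, and the JUN family bars were taller in both si-RBCK1 libraries (194 and 216 RPKM) than in si-Control (167 RPKM).

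Among the other immediate early transcription factors, *MYC* (chr8:128748315-128753680, plus strand), which pairs with MAX to drive growth and ribosome genes, was at 143 RPKM in si-Control, 124 RPKM in si-RBCK1 #1 and 126 RPKM in si-RBCK1 #2. It was the 1 usable member lower in both libraries with both counting intervals under 0, with log2 ratios of -0.20 (-0.24 to -0.16 on reads) and -0.18 (-0.21 to -0.14). The 2 siRNAs differed by 0.02 (-0.01 to 0.06), which includes 0.

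*KLF6* (chr10:3818188-3827473, minus strand), a zinc finger factor described as a tumor suppressor, was at 57.9 RPKM in si-Control, 66.4 RPKM in si-RBCK1 #1 and 56.4 RPKM in si-RBCK1 #2. Only si-RBCK1 #1 stood apart from si-Control, by 0.20 (0.16 to 0.24 on reads), while the ratio of -0.04 with si-RBCK1 #2 had an interval that reached 0 (-0.08 to 0.00). The si-RBCK1 #2 library was lower than si-RBCK1 #1 by a read ratio of -0.24 (-0.27 to -0.20).

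*IER2* (chr19:13261282-13265722, plus strand), an immediate early nuclear protein, was at 9.54 RPKM in si-Control, 15.5 RPKM in si-RBCK1 #1 and 15.9 RPKM in si-RBCK1 #2, from 361, 642 and 594 reads. It had the largest ratio shared by both siRNAs among the 8 usable members, 0.65 and 0.69, above 90.3% and 92.3% of genes tested. On reads the folds were 1.62 with si-RBCK1 #1 (log2 ratio 0.70, 0.51 to 0.89) and 1.67 with si-RBCK1 #2 (0.74, 0.55 to 0.93). The 2 si-RBCK1 libraries differed by 0.04 (-0.12 to 0.21). An antisense gene listed over *IER2* was at 0 in every library. The 3 protein-coding genes nearest to *IER2* in their pair of ratios, over these 2 comparisons only, were *TARBP2* (0.65 and 0.68), *SSSCA1* (0.64 and 0.68) and *XAB2* (0.64 and 0.68), each within 0.0106 of it.

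*EGR1* and *IER3* were kept out of the counts and medians above, because their entries could not be used as listed. *EGR1* (chr5:137801181-137805004, plus strand), the zinc finger factor induced through serum response factor, had a si-Control entry that is not a number, beside 87.5 RPKM in si-RBCK1 #1 and 66.5 RPKM in si-RBCK1 #2. Neither of these gave whole reads at the gene length of 3136 bases found for it. Values that keep the listed decimals, give whole reads and give the entry's own fold change were sought after the data were seen. They were 2.23 RPKM in si-Control, 12.5 RPKM in si-RBCK1 #1 and 9.53 RPKM in si-RBCK1 #2, that is, 258, 1582 and 1086 reads, and the same RPKM values came out at 1568 bases. With these values *EGR1* would be 5.60-fold higher on reads in si-RBCK1 #1 (log2 ratio 2.49, 2.29 to 2.68) and 4.28-fold higher in si-RBCK1 #2 (2.10, 1.90 to 2.30).

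*IER3* (chr6:30710976-30712327, minus strand), a stress-induced regulator of apoptosis and ERK signalling, was listed at 687 RPKM in si-Control, 310 RPKM in si-RBCK1 #1 and 335 RPKM in si-RBCK1 #2. Listed values gave log2 ratios of -1.14 and -1.04. At 1240 bases the si-Control and si-RBCK1 #2 entries were 31445 and 15078 whole reads, whereas the si-RBCK1 #1 entry was 15562.2 reads, which is not whole. The value implied in the same way for si-RBCK1 #1 was 510 RPKM, or 25592 reads, the 1 solution found. *IER3* would then be lower by a read ratio of -0.43 (-0.45 to -0.40) with si-RBCK1 #1 and -1.04 (-1.07 to -1.01) with si-RBCK1 #2. An antisense gene listed over *IER3* was at 0.188 to 0.308 RPKM. How the unusable entries of *EGR1* and *IER3* came about was not tested.

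The rest of the pathway was described from 8 lists written from general knowledge, each beside the median of 0.02 (si-RBCK1 #1) and 0.03 (si-RBCK1 #2) over all genes tested. Of 10 other AP-1 and bZIP partners tested, 4 were higher and 6 lower with si-RBCK1 #1 (median -0.27), and 2 were higher and 8 lower with si-RBCK1 #2 (median -0.20). None of them was 2-fold higher or lower in either library. The stress factor *ATF3*, picked after its values were seen, was at 69.6 RPKM in si-Control, 44.2 RPKM in si-RBCK1 #1 and 37.8 RPKM in si-RBCK1 #2.

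Of 26 other immediate early genes tested, 16 were higher and 10 lower with si-RBCK1 #1 (median 0.09), and 10 were higher and 16 lower with si-RBCK1 #2 (median -0.08). At least 2-fold higher were *SOCS3* and *SGK1* with si-RBCK1 #1 and *IER5* with si-RBCK1 #2, that is, 2 and 1 of the 26, beside 2.85% and 2.45% of all genes tested. At least 2-fold lower with si-RBCK1 #2 were *CYR61*, *PHLDA1* and *KLF10*, and none was with si-RBCK1 #1, beside 2.24% and 3.24% of all genes tested. Like *IER2*, its relative *IER5* was higher in both libraries, at 11.5 RPKM in si-Control, 21.4 RPKM in si-RBCK1 #1 and 25.2 RPKM in si-RBCK1 #2. *IER5L*, on the same list, was lower with si-RBCK1 #1 and higher with si-RBCK1 #2 (log2 ratios of -0.31 and 0.12). The secreted matrix protein gene *CYR61* was lower in both libraries, at 420 RPKM in si-Control, 216 RPKM in si-RBCK1 #1 and 158 RPKM in si-RBCK1 #2. These genes were named after their values were seen. The entries of *DUSP1* and *BTG2* did not give their own fold changes and were left out.

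Upstream, 13 regulators of immediate early transcription (SRF, TCF, MRTF, CREB and NAB genes) had medians of -0.17 and -0.21, with 5 higher and 8 lower in si-RBCK1 #1 and 3 higher and 10 lower in si-RBCK1 #2. The 14 MAP kinase genes had medians of 0.02 and -0.06, with 8 higher and 6 lower, then 6 higher and 8 lower. The 12 AU-rich decay factors were split 6 to 6 in both libraries, with medians of -0.03 and 0.04. No gene of these 3 lists was 2-fold higher or lower in either library.

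Downstream, 5 of 14 AP-1 target genes tested were higher and 9 lower with si-RBCK1 #1 (median -0.43), and 4 were higher and 10 lower with si-RBCK1 #2 (median -0.48). *CXCL8*, the neutrophil chemokine interleukin-8, was lower in both, at 3383 RPKM in si-Control, 1070 RPKM in si-RBCK1 #1 and 667 RPKM in si-RBCK1 #2 (log2 ratios of -1.66 and -2.34). *VIM*, the intermediate filament vimentin, was higher in both (1.19 and 1.07). These were the 2 target genes past 2-fold in the same direction with both siRNAs. *HMOX1*, at -1.95, was also at least 2-fold lower with si-RBCK1 #1 and was named after its values were seen. *CCND1* and *IL6* were left out, as their entries did not give their own fold changes.

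For *MYC*, 13 partners and degradation factors had medians of -0.06 and 0.02, with 6 higher and 7 lower, then 7 higher and 6 lower. With si-RBCK1 #2, 1 of the 13 was at least 2-fold higher, the MYC antagonist *MXD4* (1.16), beside 2.45% of all genes tested. In the same library 1 was at least 2-fold lower, *MXI1* (-1.05), also a MYC antagonist, beside 2.24%. With si-RBCK1 #1 their ratios were 0.64 and -0.98, just short of 2-fold for *MXI1*. The MYC partner *MAX* was at 23.3 RPKM in si-Control, 14.6 RPKM in si-RBCK1 #1 and 15.3 RPKM in si-RBCK1 #2. *MXD4*, *MXI1* and *MAX* were named after their values were seen. Of 23 MYC-activated genes, 17 were higher and 6 lower with si-RBCK1 #1 (median 0.29), and 18 were higher and 5 lower with si-RBCK1 #2 (median 0.14), while *MYC* mRNA itself was lower in both. Over all genes tested, 51.5% and 53.5% were higher. With si-RBCK1 #2, 1 of the 23 was at least 2-fold higher, beside 2.45% of all genes tested. This was *TERT* (1.03), at 0.634 to 2.34 RPKM and named after its values were seen. None was 2-fold higher with si-RBCK1 #1 (2.85%), and none was 2-fold lower with either siRNA (3.24% and 2.24%).

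**Figure D4:**
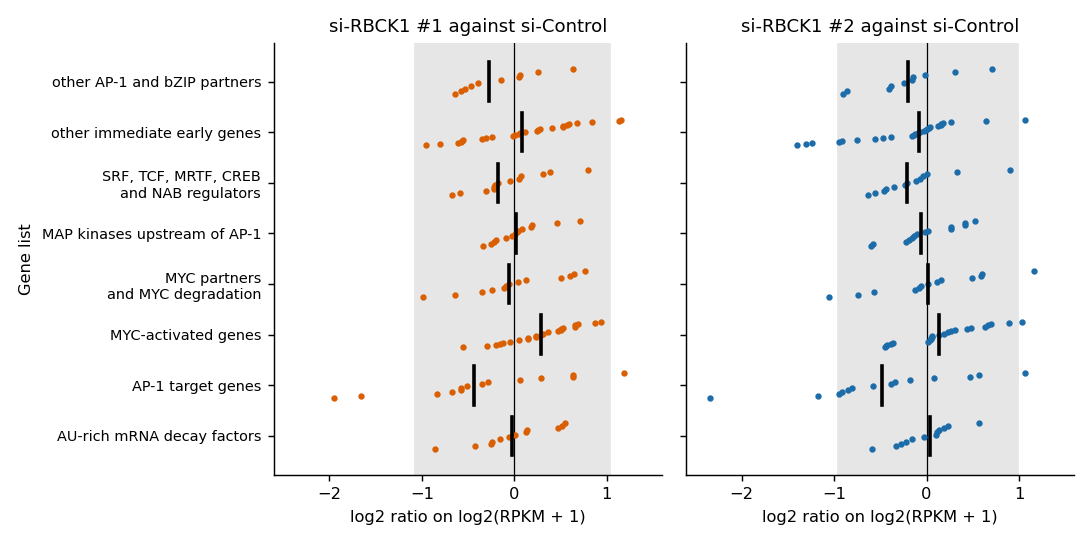
log2 ratio on log2(RPKM + 1) of every tested gene (points) of 8 lists, with the median of each list (black bars) and the middle 95% of all genes tested (grey band), for si-RBCK1 #1 (left) and si-RBCK1 #2 (right) against si-Control. The AP-1 target genes had the lowest medians (-0.43 and -0.48) and the MYC-activated genes the highest (0.29 and 0.14).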

How the data were processed

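RNA-seq of Caki-1 cells (1 library each of si-Control, si-RBCK1 #1 and si-RBCK1 #2) was used. The authors deposited 1 RPKM value per gene and library for 44591 genes. The submitters' processing notes name FastQC, Trimmomatic, TopHat2, HTSeq and hg19; whether counting used strand is not given in the sources used here. The kit is directional and ribosomal RNA was removed. The deposited columns with the authors' comparison (control and treated values, log2 fold change, p-value and q-value) were not used as results. The fold change served only to find entries that did not match it within 1e-06 on the log2 scale. These were left out, as were entries with a value that is not a number.

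Ratios were computed from the deposited RPKM values on log2(RPKM + 1) where the mean over the 3 libraries reached 1 RPKM; the pseudocount of 1 understates changes of low genes. Short RNAs (200 nt at most) gave the library totals, and all 12387 usable genes gave whole reads (100%). With 1 library per condition no count test could be run. The steps were tested on simulated data.

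Genes named by rule are the 10 members, *RBCK1*, of each list up to 4 genes that averaged 5 RPKM or more and were at least 2-fold changed in the same direction in both libraries, and 3 genes nearest to the member with the largest shared ratio; other genes are named as markers, family members or, where the text says so, after their values were seen. Members and lists were chosen with earlier results of these data known. The tools were matplotlib 3.10.9, scipy 1.17.1, pandas 2.3.3 and numpy 2.4.6, under Python 3.11.15.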

Additional observations from a re-analysis of the deposited data

Results flagged for a closer look

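*FOSL1* and *JUN* lay on opposite sides of the si-Control level with the 2 siRNAs, in opposite order, each beyond counting error. The ratio of si-RBCK1 #2 to si-RBCK1 #1 was -0.28 for *FOSL1* and 0.30 for *JUN*. Counting intervals on opposite sides of 0 were seen for 566 genes, 4.57% of all genes tested. With 1 library per siRNA the difference was not tested.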

How the results depend on the processing

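No paired analysis was possible because there was a single library for every condition, and for the same reason no library could be left out. Each ratio to si-Control of the 8 usable members kept its sign under pseudocounts of 0.1 and 5 RPKM, equal medians, equal totals and recovered reads, but of the ratios between the siRNAs *MYC* (-0.019) and *IER2* (-8.98e-05) turned under equal medians. With si-RBCK1 #1 the member median was 0.17 at a pseudocount of 5 and 0.18 at a mean of at least 5 RPKM, where *FOS* and *FOSB* drop out, and with si-RBCK1 #2 it was 0.075 and 0.066, against 0.19. With si-RBCK1 #1 the count at least 2-fold higher was then 0 in both cases, 2 at 1.5-fold, 0 at 4-fold and 2 with implied values. With si-RBCK1 #2 the count was 1 at 1.5-fold and 1 with implied values, which also gave 1 lower. The all-gene median was -0.030 with si-RBCK1 #1 under equal totals and -0.0075 with si-RBCK1 #2 under equal medians.

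With si-RBCK1 #1 the bZIP partners had a median of -0.074 without a filter, and MAP kinases -0.030 under equal totals. MYC partners had -0.11 under equal totals and 0.017 as a mean. MYC-activated genes had 0.22 (pseudocount 5), 0.23 (equal totals) and 0.24 (no filter). AP-1 targets had -0.36 (pseudocount 5), -0.49 (equal totals), -0.22 (no filter), -0.35 (mean of at least 5 RPKM) and -0.33 (as a mean). With si-RBCK1 #2 other immediate early genes had -0.23 as a mean. SRF and related regulators had -0.12 (pseudocount 5), -0.11 (mean of at least 5 RPKM) and -0.14 (as a mean), and with si-RBCK1 #1 -0.064, -0.049 and -0.064. With si-RBCK1 #2 also, MYC partners had -0.035 (equal medians) and -0.017 (equal totals). MYC-activated genes had 0.092 (pseudocount 5), 0.084 (equal medians), 0.10 (equal totals), 0.061 (no filter), 0.061 (mean of at least 5 RPKM) and 0.18 (as a mean). AP-1 targets had -0.40 (pseudocount 5), -0.27 (no filter) and -0.38 (mean of at least 5 RPKM). AU-rich decay factors had -0.0078 (equal medians) and -0.021 (as a mean). Without *FOSL2* and *JUND* in the totals, *FOSL1* was 98.8%, 97.4% and 98.3% of its family and *JUN* 72.8%, 65.0% and 70.3%. The cause of these shifts was not tested. In all, 6 of 128 alternative list medians changed sign. The alternative of adding implied values was chosen after seeing the data.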
